A study of Mus musculus with 2 samples.

Results

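The S100 genes described here are S100a1, S100a4, S100a6, S100a8, S100a9, S100a10 and S100a11, 7 of the 32285 genes counted in leukocytes of the mouse adrenal gland. The genes were listed by name, with no threshold on a measured value. The libraries were made by droplet single-cell RNA sequencing from live (DAPI-negative) CD45+ cells, which were sorted from adrenal glands of wild-type C57BL/6 mice aged 7 weeks, and 1 library came from females and 1 from males. How many animals each library pooled is not given in the sources used here. With 1 library per sex no test could be run, cells of 1 library are not replicates, and each interval below is a 95% interval that covers counting error only.

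S100 proteins are small proteins with EF-hand loops that bind calcium, and most of them work as dimers that dock onto partner proteins when calcium rises. S100a8 and S100a9 pair into calprotectin, a complex that fills the cytosol of neutrophils, withholds metal ions from microbes and, once released, acts as an alarm signal through Toll-like receptor 4. The other members are carried by many cell types: S100a10 pairs with annexin A2 and does not itself respond to calcium, S100a11 pairs with annexin A1, S100a6 binds the calcyclin-binding protein Cacybp, S100a4 binds the heavy chain of non-muscle myosin, and S100a1 is best known from muscle, where it acts on calcium handling.

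In the GRCm38 annotation all 7 genes lay on chromosome 3, in 2 groups. S100a1 (ENSMUSG00000044080, chr3:90511034-90514392, minus strand), S100a4 (ENSMUSG00000001020, chr3:90603771-90606045, plus strand), S100a6 (ENSMUSG00000001025, chr3:90612882-90624181, plus strand), S100a8 (ENSMUSG00000056054, chr3:90668978-90670035, plus strand) and S100a9 (ENSMUSG00000056071, chr3:90692632-90695721, minus strand) lay within 184688 bases. S100a8 and S100a9 were 22596 bases apart and were read from opposite strands, with their 3′ ends facing each other. S100a11 (ENSMUSG00000027907, chr3:93520488-93526287, plus strand) and S100a10 (ENSMUSG00000041959, chr3:93555080-93564643, plus strand) formed the other group, within 44156 bases. S100a4 overlapped an uncounted gene model on the same strand (Gm42674), and the other 6 overlapped no annotated gene.

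Promoter windows of 300 bases, from 250 before to 50 after the RefSeq start of transcription (GRCm38.p6), were on hand for 6 of the 7 genes. The letters TATAAA, searched on both strands, stood in 3 of these 6 windows and in 13.6% of 32851 windows of that length. The 30 bases around each match are shown because S100a8 and S100a9, the pair with the most alike levels below, and S100a4, whose levels across the classes were unlike theirs, all held these letters. The capitals mark TATAAA, and each stretch is written 5′ to 3′ on the strand of its gene:
S100a8, chr3:90669029-90669058, plus strand: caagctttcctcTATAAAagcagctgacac
S100a9, chr3:90695704-90695733, minus strand: caaggagctgccTATAAAtactgggcttac
S100a4, chr3:90603727-90603756, plus strand: ggcctggcagggTATAAAtaggtcagattg
The match began 30 bases before the start of S100a8, 31 before that of S100a4 and at the first base of the S100a9 start that RefSeq lists. The letters GGGCGG stood in 2 of the 6 windows (S100a9 and S100a11, with 3 matches in S100a11) and in 35.7% of all windows, and GAGGAA in 3 of the 6 (S100a4, S100a8 and S100a11) and in 28.3% of all windows. S100a1 and S100a6 held none of these motifs.

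The female library held 16218309 unique molecular identifiers (UMIs) in 3963 barcodes and the male library 9512670 in 2685, and the libraries shared 2 barcode sequences. After filtering, 3693 female and 2450 male cells remained (median depth 3491 and 2988 UMIs), and 3358 and 2214 of them entered 1 of 14 marker gates. Ptprc, which encodes CD45, had a UMI in 83.3% of female and 76.0% of male cells, but in 1 of 31 female and 1 of 30 male cells of the endothelial gate. Cells with markers of different lineages (202 and 91), with equal support for several gates (17 and 26) or with too few markers (116 and 119) entered no class. Levels are CPM, a gene's UMIs added up within a class and scaled to 1000000 UMIs of that class.

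S100a8 and S100a9 were neutrophil transcripts in both libraries, and neutrophils were scarce. The gate, which used no S100 gene, held 41 female and 48 male neutrophils, 1.11% and 1.96% of the cells. S100a8 stood at 78013 CPM (75960 to 80107) in female and 59354 (57730 to 61012) in male neutrophils. S100a9 stood at 83870 CPM (81741 to 86041) and 70953 (69176 to 72764). Every neutrophil of both libraries had UMIs of both genes.

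These few cells held most of the S100a8 and S100a9 UMIs of the kept cells. Neutrophils held 79.2% of the S100a8 UMIs of the female and 94.2% of those of the male library. For S100a9 the shares were 78.9% and 93.0%. Most of the remaining female UMIs lay in cells of no class, which held 16% of S100a8 against 4.34% in the male library.

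The pair took up a large and uneven part of each neutrophil's RNA. Together the genes made up a median of 14.3% of a female neutrophil's UMIs, with a range from 0.542% to 33.3%. In male neutrophils the median was 7.91% and the range 0.761% to 35.1%. The ranges overlapped almost fully, while the quartiles were higher in female (8.65% and 20.5%) than in male neutrophils (5.09% and 13.4%). In 3 of 41 female and 1 of 48 male neutrophils the share was under 1%. The 5 cells with the most UMIs of S100a8 held 32.6% of the S100a8 UMIs of female and 50.3% of those of male neutrophils, and without these cells the levels were 65593 and 37368 CPM.

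**Figure D1:**
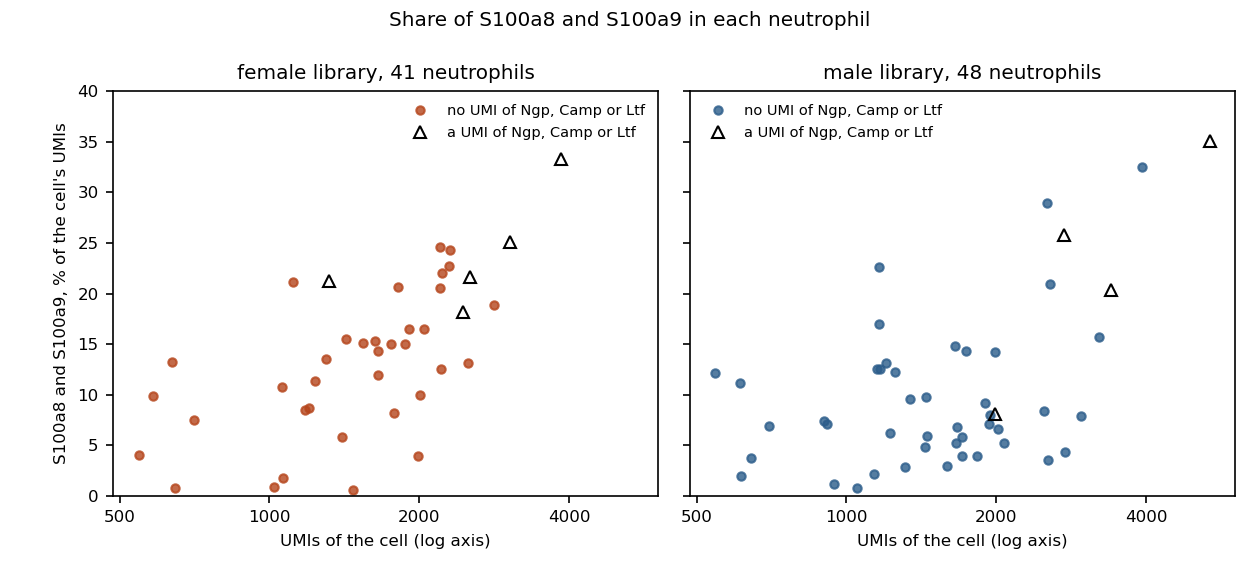
Share of S100a8 and S100a9 among the UMIs of each neutrophil (vertical axis, %) against the number of UMIs of the cell (log axis), in 41 female and 48 male cells. Triangles are the cells with a UMI of Ngp, Camp or Ltf, and the shares run from 0.542% to 33.3% in the female and from 0.761% to 35.1% in the male library.

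Neutrophils with a UMI of Ngp, Camp or Ltf, genes of the secondary granules that are made early in neutrophil maturation, had more of the pair and less of S100a11 than neutrophils without, in sums over their UMIs. S100a8 was at 123664 CPM in 5 such female cells against 67438 in the other 36, and at 121075 in 4 male cells against 47740 in the other 44. S100a11 went the other way, at 5001 against 9092 and at 2148 against 6898 CPM. S100a6 was lower in the male library, at 3999 against 10116 CPM, while in the female library its intervals overlapped, 7956 (6508 to 9632) against 10040 (9234 to 10898). In the male library 1 of the 4 cells held 922 of their 1635 UMIs of S100a8, and another had 8.13% of its UMIs from the pair, close to the median of 7.91% over all male neutrophils. The cells with such a UMI were deeper (median 2531 and 3069 UMIs) than those without (1639 and 1524), and the part of depth in the result was not tested. With 4 or 5 cells on 1 side this is a description of those cells, and Ngp, Camp and Ltf were among the markers of the gate.

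The other members divided sharply in neutrophils. S100a6 stood at 9648 CPM (8935 to 10403) in female and 9148 (8517 to 9813) in male neutrophils, the highest level of this gene in any class. S100a11 was also highest there, at 8323 CPM (7662 to 9026) and 6145 (5630 to 6695). S100a4 had 2 UMIs in female and 0 in male neutrophils, and S100a10 had 4 and 0. A count of 0 among 85268 male UMIs allows a level of up to 35.2 CPM, so S100a4 and S100a10, which every other large class carried, were near or under the limit of detection in neutrophils.

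**Figure D2:**
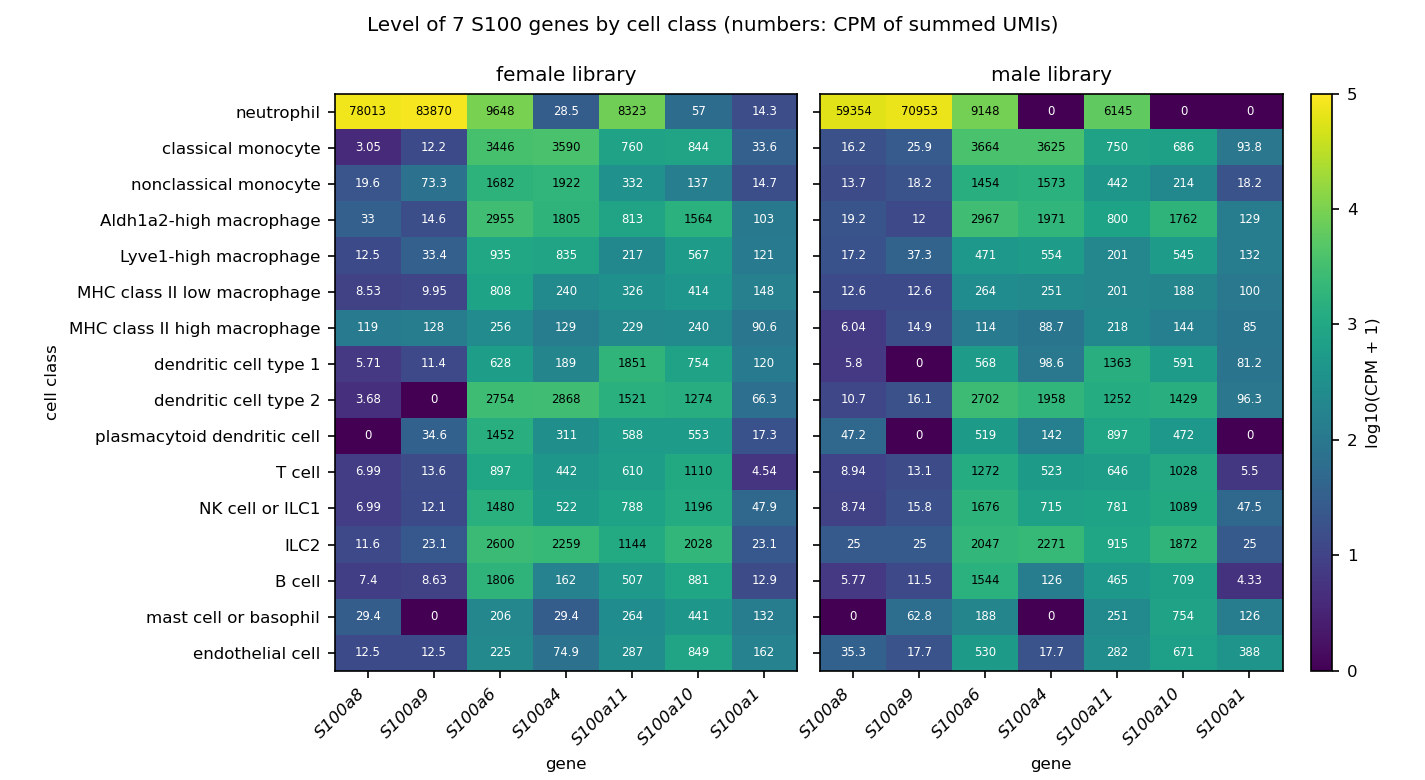
Level of the 7 genes in 16 cell classes of the female (left) and male (right) library, with the CPM printed in each cell and the colour giving log10(CPM + 1). S100a8 and S100a9 stand out in neutrophils alone, S100a4 and S100a10 are near 0 there, and the value of 119 and 128 CPM in female MHC class II high macrophages came mostly from 1 barcode.

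Lymphocytes, which do not make calprotectin, set the background of S100a8 and S100a9. T cells, NK cells, ILC2 and B cells together were 2045 female and 1012 male cells, whose median depth of 3543 and 3649 UMIs compares with 1653 and 1654 in neutrophils. S100a8 stood at 7.16 CPM (5.47 to 9.22) in female and 8.79 (6.15 to 12.2) in male lymphocytes. S100a9 stood at 12.2 CPM (9.93 to 14.8) and 14.4 (11 to 18.6). The neutrophil level of S100a8 was 10890 times the lymphocyte level (8447 to 14290) in the female and 6756 times (4873 to 9657) in the male library.

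Shares of cells gave the same background. Of 500 UMIs drawn from each cell, at least 1 was S100a8 in 0.391% of female and 0.494% of male lymphocytes, and in 100% and 97.9% of neutrophils. For S100a9 the shares were 0.88% and 0.791% of lymphocytes against 97.6% and 97.9% of neutrophils. Without the draw, 2.84% and 3.36% of lymphocytes had a UMI of S100a8, 4.55% and 5.34% had one of S100a9, and no lymphocyte had more than 2 UMIs of either gene. T cells, NK cells and B cells lay close together, between 5.77 and 8.94 CPM of S100a8 in both libraries. ILC2 had the highest values of the lymphocyte classes, 11.6 and 25 CPM of S100a8 and 23.1 and 25 of S100a9, from 2 to 4 UMIs each and with intervals that overlapped those of the other lymphocytes.

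UMIs of S100a9 for each UMI of S100a8 differed between neutrophils and this background. Each transcript is tagged at its 3′ end, so the ratio is not corrected for length. In neutrophils it was 1.08 (1.04 to 1.12) in the female and 1.2 (1.15 to 1.24) in the male library. In lymphocytes it was 1.70 (1.22 to 2.38) and 1.64 (1.06 to 2.55). The female intervals did not overlap, while the male ones did.

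In monocytes, macrophages and dendritic cells most levels of both genes had intervals that overlapped the lymphocyte interval. Classical monocytes had 2 female and 5 male UMIs of S100a8, 3.05 CPM (0.370 to 11) and 16.2 (5.25 to 37.7). Male macrophages outside the Lyve1-high and Aldh1a2-high subsets were at 6.27 CPM of S100a8 and 14.8 of S100a9. Dendritic cells of both types had at most 3 UMIs of either gene in a library. The exceptions rested on few UMIs or few cells. In the female library 1 macrophage barcode with high MHC class II held 226 UMIs of S100a8 and 241 of S100a9, which was 92.2% of the S100a8 of that class, and without it the class stood at 9.29 CPM of S100a8 and 10.3 of S100a9. Female nonclassical monocytes were at 73.3 CPM of S100a9 (41.0 to 121), with 9 of the 15 UMIs in 1 cell. In Lyve1-high macrophages S100a9 was at 33.4 CPM (14.4 to 65.8) in the female library, which overlapped the background, and at 37.3 (19.9 to 63.8) in the male, which lay above it with 13 UMIs. In Aldh1a2-high macrophages the female level of S100a8, 33.0 CPM (15.1 to 62.6), lay above the lymphocyte interval with 9 UMIs, and the male level, 19.2 (8.27 to 37.7), overlapped it.

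**Figure D3:**
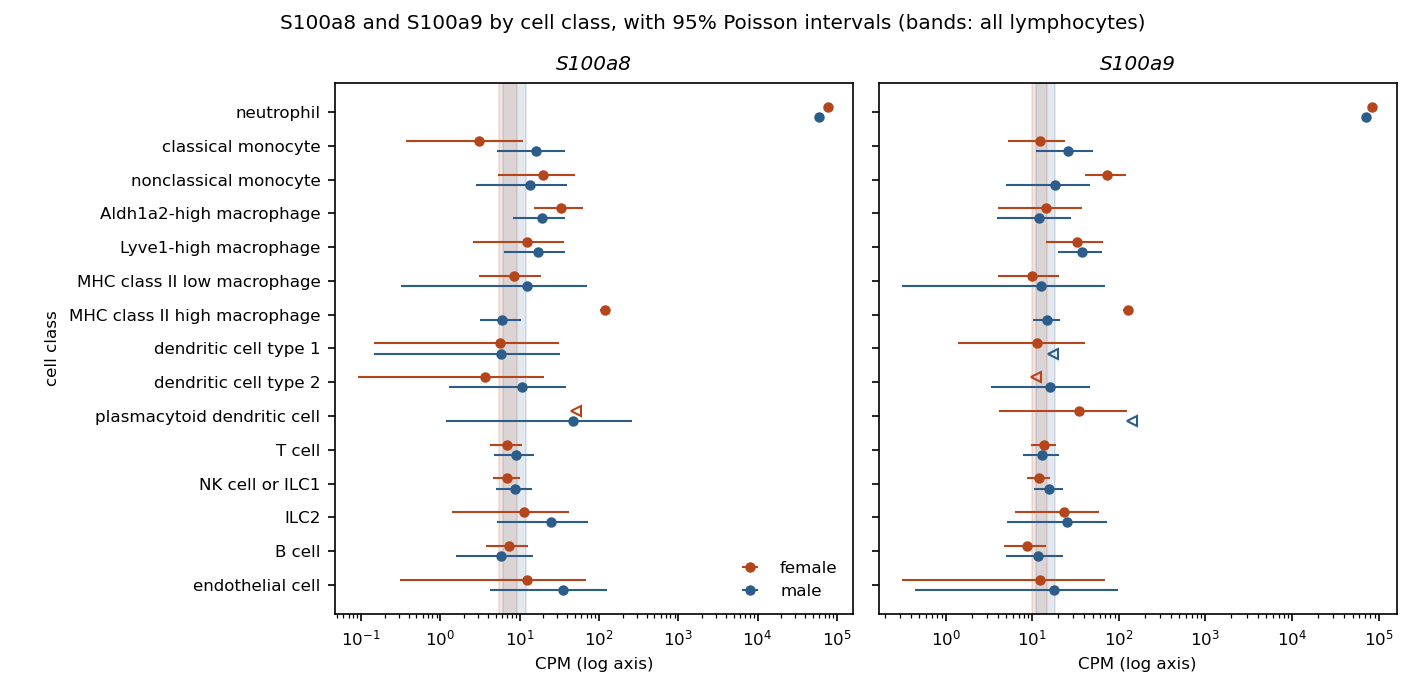
S100a8 (left) and S100a9 (right) by cell class, in CPM on a log axis with 95% Poisson intervals, for the female and male library. The bands are the intervals of all lymphocytes, open triangles are the limit of 3 counts where no UMI was found, and the classes whose interval lies wholly above a band, other than neutrophils, are female MHC class II high macrophages (both genes), Aldh1a2-high macrophages (S100a8) and nonclassical monocytes (S100a9) and male Lyve1-high macrophages (S100a9).

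S100a6 was high in cells of several lineages. After neutrophils came classical monocytes at 3447 CPM (3306 to 3592) in the female and 3664 (3454 to 3884) in the male library. Aldh1a2-high macrophages followed at 2955 and 2967 CPM and type 2 dendritic cells at 2754 and 2702, and the intervals of these 2 classes overlapped in both libraries. ILC2 were at 2600 and 2047, B cells at 1806 and 1544, nonclassical monocytes at 1682 and 1454, and NK cells or ILC1 at 1480 and 1676. MHC class II high macrophages were at 256 and 114 CPM, the lowest level of any class in the male library.

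S100a4 led in classical monocytes, at 3590 CPM (3446 to 3738) in the female and 3625 (3416 to 3844) in the male library. Type 2 dendritic cells (2868 and 1958 CPM), ILC2 (2259 and 2271), Aldh1a2-high macrophages (1805 and 1971) and nonclassical monocytes (1922 and 1573) came next. In the male library the intervals of ILC2, Aldh1a2-high macrophages and type 2 dendritic cells overlapped one after the other. NK cells or ILC1 (522 and 715 CPM) and T cells (442 and 523) were lower, and B cells were at 162 and 126.

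S100a10, the annexin A2 partner, led in ILC2, at 2028 CPM (1821 to 2251) in the female and 1872 (1635 to 2133) in the male library. Next were Aldh1a2-high macrophages at 1564 and 1762 CPM, whose interval overlapped that of ILC2 in the male library, and type 2 dendritic cells at 1274 and 1429. NK cells or ILC1 (1196 and 1089 CPM) and T cells (1110 and 1028) followed each other, with overlapping intervals in the male library and not in the female. The share of cells with a UMI was 95.5% and 96.2% of NK cells or ILC1 and 86.7% and 85.0% of T cells. Nonclassical monocytes were low, at 137 CPM (91.0 to 198) and 214 (157 to 285).

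S100a11, the annexin A1 partner, was highest after neutrophils in dendritic cells. Type 1 dendritic cells were at 1851 CPM (1655 to 2064) in the female and 1363 (1194 to 1548) in the male library, and type 2 dendritic cells at 1521 and 1252, with overlapping intervals in both libraries. ILC2 (1144 and 915 CPM), Aldh1a2-high macrophages (813 and 800), NK cells or ILC1 (788 and 781) and classical monocytes (760 and 750) followed. The low end was shared by Lyve1-high (217 and 201 CPM), MHC class II high (229 and 218) and, in the male library, MHC class II low macrophages (201), whose intervals overlapped.

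S100a1 was sparse, with 745 female and 538 male UMIs in all kept cells. Endothelial cells had the highest level, 162 CPM (86.4 to 277) in 31 female and 388 (243 to 588) in 30 male cells. Its interval overlapped those of the next classes in the female library. Macrophages were at 148 and 100 CPM in MHC class II low, 121 and 132 in Lyve1-high and 103 and 129 in Aldh1a2-high cells. T cells were near 0, at 4.54 and 5.50 CPM. The sort left few endothelial cells, and 5 of them held much of the signal in each library.

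Classical monocytes were compared with nonclassical monocytes, the patrolling type, within each library. A gene was called where its ratio was 2-fold or more in the same direction in both libraries, among genes with at least 50 UMIs in 1 of the compared classes, both libraries added, and 5 of the 7 S100 genes could be read this way. Of these 5, S100a1, S100a6 and S100a10 were called higher and 0 lower, against 3.42% of 2749 genes called higher and 3.97% called lower. S100a10 was at 844 against 137 CPM in the female library, 6.16-fold (4.22 to 9.36), and at 686 against 214 in the male, 3.20-fold (2.32 to 4.49). S100a6 was 2.05-fold (1.83 to 2.30) and 2.52-fold (2.22 to 2.86) higher. S100a4 (1.87- and 2.31-fold) and S100a11 (2.29- and 1.70-fold) were higher in both libraries and past 2-fold in 1. The S100a1 ratios, 2.29 (0.687 to 11.9) and 5.14 (1.81 to 20.1), rested on 3 and 4 UMIs in nonclassical monocytes and 22 and 29 in classical ones, through which alone S100a1 passed the minimum, and the female interval holds 1. With a minimum of 200 UMIs, 2 of 4 members were called. With each cell weighing the same, or without the 5 cells with the most UMIs, all 5 genes passed 2-fold in both libraries. Classical monocytes had a lower median mitochondrial share (1.31% against 3.16% in the female, 1.09% against 2.18% in the male library). They were also deeper (median 3350 against 1733 and 3837 against 2192 UMIs), and the part of either in the result was not tested.

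Aldh1a2-high macrophages, a subset with Fn1 and Retnla, had more of 4 S100 genes than the macrophages outside both subsets. S100a4, S100a6, S100a10 and S100a11 were called higher and 0 of 7 lower, against 6.95% of 7683 genes called higher and 11.6% called lower. S100a4 was at 1805 against 157 CPM in the female library, 11.5-fold (10.1 to 13.1), and at 1971 against 94.5 in the male, 20.9-fold (17.9 to 24.4). S100a6 was at 2955 against 397 CPM, 7.45-fold (6.79 to 8.16), and at 2967 against 119, 24.9-fold (21.8 to 28.5). The levels in the subset were close in both libraries, and the libraries differed in the macrophages it was compared with. S100a10 was 5.51-fold (4.88 to 6.20) and 12.1-fold (10.6 to 13.9) higher, and S100a11 3.20-fold (2.74 to 3.73) and 3.68-fold (3.19 to 4.24). The subset was gated on its own markers and held less of the macrophage marker list, at 4182 against 53693 CPM in the female and 3594 against 42287 in the male library, where classical monocytes were at 5421 and 4483. It also held more classical monocyte markers than the macrophages outside both subsets (6876 against 893 CPM in the female, 8214 against 517 in the male library), and their part in the result was not tested. Fn1 is on both marker lists, that of the subset and that of classical monocytes, so this sum is not independent of the subset's markers.

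Lyve1-high macrophages, a perivascular type in many organs, differed from the same macrophages in fewer members. S100a4 and S100a6 were called higher and 0 of 7 lower, against 5.79% of 7673 genes called higher and 4.24% lower. S100a4 was 5.30-fold (4.46 to 6.28) higher in the female and 5.86-fold (4.80 to 7.16) in the male library. S100a6 was 2.36-fold (2.03 to 2.72) and 3.95-fold (3.23 to 4.82) higher. S100a10 was 2.00-fold (1.65 to 2.40), just under the call, and 3.76-fold (3.13 to 4.51) higher, and S100a11 was at 0.855 (0.632 to 1.13) and 0.925 (0.709 to 1.19) of the level outside the subsets. The 5 lead cells of the subset held 59.0% and 42.5% of its S100a4 UMIs, and without the lead cells, or with each cell weighing the same, 1 member was called. Classical monocyte markers were higher in the subset too (3330 against 893 CPM in the female, 3350 against 517 in the male library), as was the median mitochondrial share (5.35% against 3.00% and 5.99% against 2.85%), and their part in the result was not tested. F13a1 is on the marker lists of both Lyve1-high macrophages and classical monocytes, so the sum of these markers is not independent of the subset's own.

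S100a8 and S100a9 ratios between macrophage subsets are not given, since the subsets had few UMIs of either gene (3 to 13 in Lyve1-high and 4 to 9 in Aldh1a2-high macrophages of a library) and the female level outside the subsets turned on the barcode above (91.0 CPM of S100a8 with it and 9.10 without it).

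Among macrophages outside both subsets, MHC class II low cells (class II genes at 1% or less of the UMIs, 163 female and 29 male cells) were compared with MHC class II high cells (514 and 611). S100a6 was called higher and 0 of 7 members lower, against 0.723% of 7189 genes called higher and 1.08% lower. It was at 808 against 256 CPM in the female library, 3.15-fold (2.80 to 3.56), and at 264 against 114 in the male, 2.32-fold (1.41 to 3.62). The male value had 21 UMIs on the low side, and without the 5 lead cells no UMI was left, so no member was called. Without doublet removal no member was called either. S100a4 was 1.86-fold (1.53 to 2.27) and 2.83-fold (1.69 to 4.50) higher, and S100a11 1.42-fold (1.21 to 1.67) and 0.923 (0.523 to 1.51). MHC class II low cells also held more of the classical monocyte markers (1381 against 726 CPM in the female, 1143 against 494 in the male library). The B cell markers of the female cells (17527 against 5912 CPM) lay mostly in 1 barcode of each class, which held 97.7% and 94.1% of them. The part of these markers in the result was not tested.

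Type 2 dendritic cells, which present antigen to CD4+ T cells, and type 1 dendritic cells, which cross-present to CD8+ T cells, differed most in S100a4 and S100a6. S100a4 and S100a6 were called higher in type 2 cells and 0 of 4 members lower, against 10.5% of 1168 genes called higher and 4.28% lower. S100a4 was at 2868 against 189 CPM in the female library, 15.2-fold (10.7 to 22.3), and at 1958 against 98.6 in the male, 19.9-fold (12.2 to 34.5). S100a6 was 4.38-fold (3.58 to 5.4) and 4.76-fold (3.82 to 5.97) higher. S100a10 was 1.69-fold (1.38 to 2.08) and 2.42-fold (1.92 to 3.07) higher. S100a11 was at 0.821 (0.709 to 0.953) and 0.919 (0.763 to 1.11) of the type 1 level. Classical monocyte markers were higher in type 2 cells too (1973 against 1183 CPM in the female, 1900 against 870 in the male library). Their part in the result was not tested.

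Effector or memory T cells had more of all 4 S100 genes that could be read than naive T cells, and 3 were called. S100a4, S100a6 and S100a11 were called higher and 0 of 4 members lower, against 8.3% of 5796 genes called higher and 1.79% lower. The median ratio over all these genes was above 1, by 0.34 on the log2 scale in the female and 0.45 in the male library, and relative to it 4.66% of genes and the same number of members were called higher. S100a4 was at 693 against 77.9 CPM in the female library, 8.89-fold (7.18 to 11.1), and at 800 against 3.91 in the male, where naive T cells had 2 UMIs and the ratio was 205-fold (56.5 to 1694). S100a6 was at 1374 against 206 CPM, 6.68-fold (5.85 to 7.66), and at 1906 against 115, 16.5-fold (12.8 to 21.8). S100a11 was 2.65-fold (2.36 to 2.98) and 3.72-fold (3.07 to 4.55) higher, and S100a10 1.84-fold (1.70 to 1.99) and 2.61-fold (2.28 to 3.00). Of 500 drawn UMIs, at least 1 was S100a6 in 41.4% and 48.0% of effector or memory cells and in 7.36% and 3.62% of naive cells.

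NK cells and ILC1 were divided by Itga1, an integrin of tissue-resident cells, against Eomes, Klra4 and Klra8, genes of circulating NK cells. S100a4 was called higher in Itga1+ cells and 0 of 5 members lower, against 1.71% of 5378 genes called higher and 2.03% lower. It was at 1074 against 162 CPM in the female library, 6.62-fold (5.73 to 7.67), and at 1176 against 209 in the male, 5.63-fold (4.67 to 6.83). S100a6 was 2.27-fold (2.12 to 2.44) and 1.76-fold (1.60 to 1.94) higher. S100a10 went the other way, at 0.773 (0.711 to 0.84) and 0.658 (0.585 to 0.739) of the level in the circulating type. T cell markers were higher in Itga1+ cells (2193 against 995 CPM in the female, 2035 against 1049 in the male library). Classical monocyte markers were lower (391 against 1228 and 798 against 1599 CPM), and the part of these markers in the result was not tested.

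B cells with a UMI of Mzb1, an endoplasmic reticulum protein of marginal zone and B1 cells and of antibody-secreting cells, were compared with B cells without one. S100a4 and S100a6 were called higher and 0 of 4 members lower, against 1.68% of 3582 genes called higher and 0.586% lower. S100a6 was at 2211 against 500 CPM in the female library, 4.42-fold (3.82 to 5.15), and at 2120 against 228 in the male, 9.31-fold (6.97 to 12.7). S100a4 was 2.82-fold (1.87 to 4.40) and 7.17-fold (2.95 to 22.7) higher, with 26 and 5 UMIs in Mzb1- cells, so that it passed the minimum through the Mzb1+ cells alone, and 1 member was called with a mitochondrial ceiling of 5% or with 1 marker more per gate. The Mzb1+ cells were deeper (median 2605 and 2060 UMIs) than the Mzb1- cells (1834 and 1505), and a UMI of Mzb1 is found more often in deeper cells. Classical monocyte markers were also higher in Mzb1+ cells (2817 against 1721 CPM in the female, 2423 against 1409 in the male library). The part of depth and of these markers in the result was not tested. S100a6 lay in a minority of the B cells, with a UMI in 33.6% of female and 27.1% of male cells.

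**Figure D4:**
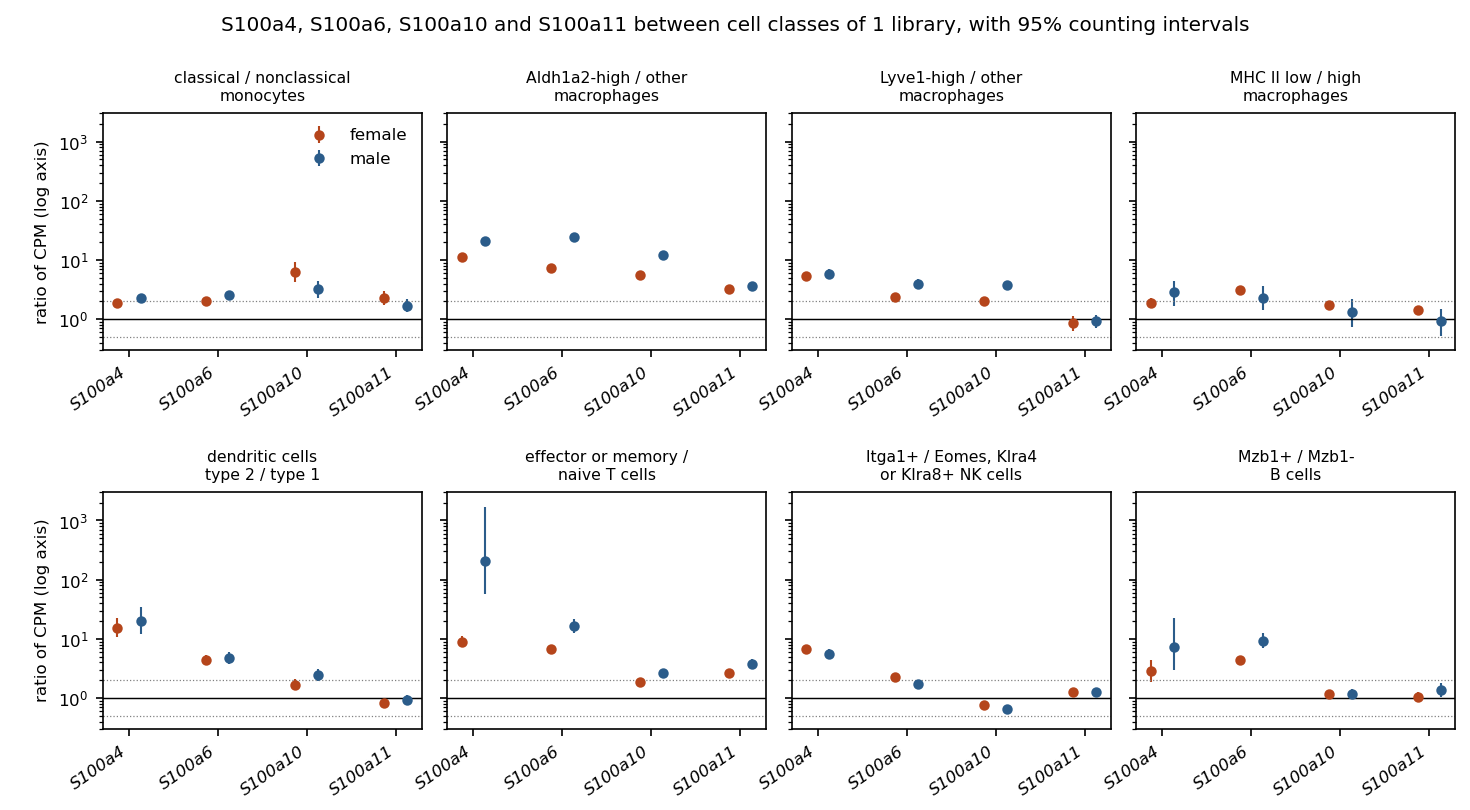
Ratio of CPM of S100a4, S100a6, S100a10 and S100a11 in 8 comparisons of cell classes (log axis), with 95% counting intervals, for the female and male library. The solid line is a ratio of 1 and the dotted lines are 2-fold, and S100a4 and S100a6 lie above 1 in all 8 comparisons of both libraries while S100a10 and S100a11 lie on both sides of it. The comparisons of dendritic cells, NK cells and B cells were set after looking at these data, so the 8 are not all independent of the values shown.

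Binding partners and receptors of the S100 family were followed with a list of 16 genes. In Aldh1a2-high macrophages 14 of them could be read, Ahnak, Anxa1 and Anxa2 were called higher and Cybb lower, against 6.95% of all genes higher and 11.6% lower. Anxa2, the annexin that binds S100a10, was at 1318 against 80.9 CPM in the female and 1492 against 47.9 in the male library, 16.3-fold (13.8 to 19.3) and 31.1-fold (25.3 to 38.6). Ahnak, a giant scaffold protein that binds the S100a10 and annexin A2 complex, was 23.8-fold (20.6 to 27.6) and 35-fold (29.3 to 41.9) higher. Anxa1, the S100a11 partner, was 6.17-fold (4.33 to 8.72) and 11-fold (7.66 to 16.1) higher, and Cybb, the catalytic subunit of the phagocyte oxidase, was at 0.475 (0.400 to 0.560) and 0.483 (0.421 to 0.551).

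Ahnak was called higher in 5 of the 8 comparisons, and the share of genes called in as many was not computed. S100a4 and S100a6 were above 1 in all 8 as the groups were ordered, so the shared direction does not set Ahnak apart. The comparisons of dendritic cells, NK cells and B cells were set after looking at these data. In Lyve1-high macrophages Ahnak, Anxa1, Anxa2 and Anxa6 were higher and Cacybp, the S100a6 partner, lower (0.472 and 0.490), of 14 read, against 5.79% of all genes higher and 4.24% lower. In effector or memory T cells Ahnak, Anxa1 and Anxa2 were higher of 10 read, against 8.3% of all genes, Anxa1 with 3 and 1 UMIs in naive cells. In type 2 dendritic cells Ahnak and Cybb were higher and Anxa6 lower of 9 read, against 10.5% of all genes higher and 4.28% lower. Cybb had 5 and 12 UMIs in type 1 cells. In Mzb1+ B cells Ahnak and Anxa2 were higher of 11 read, against 1.68% of all genes, Anxa2 with 17 and 1 UMIs in Mzb1- cells. Anxa1 in T cells, Cybb in dendritic cells, Anxa2 in B cells and Cacybp in Lyve1-high macrophages (8 and 14 UMIs) passed the minimum through the group where they were high alone. In Itga1+ NK cells or ILC1 Anxa2 was lower, at 0.491 (0.429 to 0.561) and 0.477 (0.404 to 0.563), beside the lower S100a10. None of the other 9 read was called, against 1.71% of all genes higher and 2.03% lower. For the monocyte types (11 read) and the MHC class II levels (14 read) 0 partner genes were called. The shares of all genes given above are the background of these counts.

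The receptors of released calprotectin were sparse. Tlr4 had 192 female and 162 male UMIs in all kept cells, its co-receptor Ly96 385 and 307, Cd14 768 and 572, and Ager, the receptor for advanced glycation end products, 8 and 8. Neutrophils had 342 and 141 CPM of Cd14, and 57.0 and 35.2 CPM of Tlr4 from 4 and 3 UMIs.

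Of 9 other S100 family genes on the list, 7 had at most 10 UMIs in either library (S100a3, S100a5, S100a7a, S100a14, S100b, S100g and S100z). S100a13 had 3931 and 2247 UMIs and was spread over all classes, from 85.5 CPM in female neutrophils to 562 in female endothelial cells. It was called in 1 of the 8 comparisons, higher in Aldh1a2-high macrophages at 2.13-fold (1.70 to 2.64) and 2.35-fold (1.94 to 2.85). S100a16 was an endothelial transcript, at 499 and 600 CPM in endothelial cells and at most 5.80 CPM in the other classes listed.

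Female and male cells were then compared within each of 14 classes, the sexes being what the study set side by side. Differences of 2-fold or more were found in macrophages outside the Lyve1-high and Aldh1a2-high subsets, where S100a6, S100a8 and S100a9 were higher in females and 0 of 7 members lower, against 0.901% of 5991 genes higher and 0.551% lower. S100a6 was at 397 CPM (374 to 421) in 677 female cells and 119 (105 to 134) in 640 male cells, 3.33-fold (2.91 to 3.82). Under the alternatives given at the end this ratio ran from below to above its interval and stayed above 2-fold. The balance of MHC class II low and high cells differed between the libraries. The low cells numbered 163 in the female library and held 568 of its 1094 S100a6 UMIs here. In the male library they numbered 29 and held 21 of 266. The pooled ratio includes this difference in balance, and its part in the ratio was not tested. The S100a8 and S100a9 ratios, 14.5 and 6.60, came from the 1 female barcode above, and without it and similar barcodes S100a6 alone was called, at 3.33-fold.

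S100a10 and S100a4 were also higher in these female macrophages and under 2-fold. S100a10 was at 284 against 145 CPM, 1.96-fold (1.72 to 2.23) and past 2-fold relative to the median gene, and S100a4 at 157 against 94.5, 1.67-fold (1.41 to 1.97). S100a11 was at 254 against 217 CPM, 1.17-fold (1.04 to 1.31), and S100a1 at 105 against 85.6, 1.23-fold (1.02 to 1.48). Of 500 drawn UMIs, at least 1 was S100a6 in 11.1% of female and 4.06% of male cells.

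The difference in S100a6 was present in MHC class II high cells, and in MHC class II low cells it rested on few male UMIs. In MHC class II high cells S100a6 was at 256 against 114 CPM, 2.25-fold (1.93 to 2.63), and S100a8 and S100a9 were called through the same barcode, with 0 of 7 members lower, against 0.506% of 5341 genes higher and 0.412% lower. In MHC class II low cells S100a6 was at 808 against 264 CPM, 3.06-fold (1.98 to 4.98), and S100a10 at 414 against 188, 2.20-fold (1.31 to 3.97), with 0 of 5 members lower, against 8.49% of 2074 genes higher and 4.39% lower. The male class held 29 cells, with 21 UMIs of S100a6 and 15 of S100a10, and both genes passed the minimum through the female class alone. Of the 21 male UMIs of S100a6, 12 lay in 1 cell, and none was left without the 5 lead cells.

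Classical monocyte markers moved with these levels. The classical monocyte markers together stood at 893 CPM in the female and 517 in the male macrophages outside both subsets. Cells were then grouped by how many of the markers were detected. S100a6 was at 107 CPM in female and 32.5 in male cells with 0 markers, 3.30-fold (2.10 to 5.31), at 261 and 82.2 with 1, 3.17-fold (2.44 to 4.18), and at 505 and 85.4 with 2, 5.92-fold (4.13 to 8.74). With 3 or more, 69 female and 25 male cells were at 1026 and 1046 CPM, a ratio of 0.98 (0.806 to 1.2). Among MHC class II high cells with 3 or more markers, S100a6 was lower in the 36 female than in the 24 male cells, at 661 and 980 CPM or 0.674-fold (0.527 to 0.864). The female cells were also deeper, with a median of 3626 against 2684 UMIs. The part of the markers and of depth in the difference was not tested. S100a10 was higher in females with 0 markers, 1.87-fold (1.43 to 2.45), with 1, 1.95-fold (1.55 to 2.46), and with 2, 2.92-fold (2.12 to 4.10). With 3 or more S100a10 was lower, at 0.693 (0.524 to 0.924). S100a4 was 2.28-fold (1.06 to 5.21) higher with 0 markers, at 0.995 (0.684 to 1.45) with 1 and 2.81-fold (1.92 to 4.23) higher with 2. With 3 or more S100a4 was lower, at 0.529 (0.416 to 0.675). S100a11 was at 176 and 178 CPM with 0 markers.

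**Figure D5:**
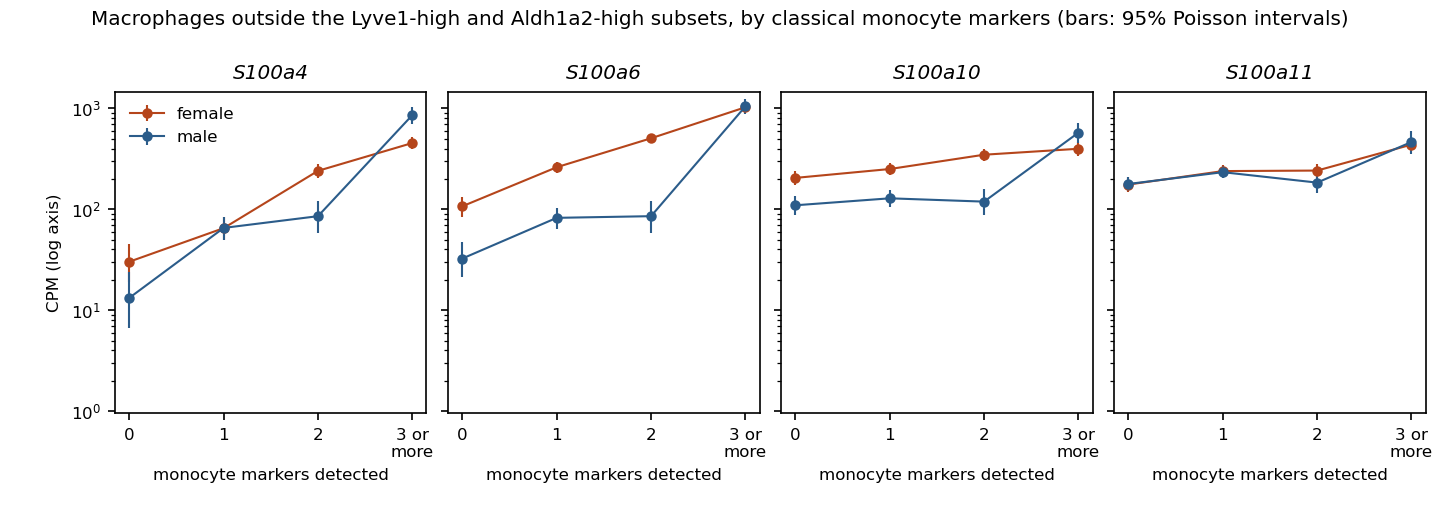
S100a4, S100a6, S100a10 and S100a11 in macrophages outside both subsets, in CPM on a log axis with 95% Poisson intervals, by the number of classical monocyte markers detected in the cell. Female cells had more S100a6 than male cells at 0, 1 and 2 markers (107 and 32.5 CPM at 0) and like levels at 3 or more (1026 and 1046 CPM), and S100a11 was alike in both libraries at 0 and 1.

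In the other 11 classes no member with at least 50 UMIs in the class of 1 library was 2-fold higher or lower in females, where 1.07% of 22630 pairs of a gene and a class were past 2-fold in either direction. Of the members under that minimum, S100a1 in classical monocytes was at 33.6 against 93.8 CPM, 0.358-fold (0.196 to 0.645), from 22 and 29 UMIs. S100a9 in nonclassical monocytes, also under it, was 4.02-fold (1.28 to 16.6) higher in females, from 15 and 4 UMIs, and most of the 15 lay in 1 cell. S100a8 in neutrophils was 1.31-fold (1.26 to 1.37) and S100a9 1.18-fold (1.14 to 1.23) higher in the female library when all cells were summed. The median over cells was 6.9% of a cell's UMIs in female and 3.41% in male neutrophils for S100a8, and 7.44% and 4.69% for S100a9, with overlapping ranges. S100a6 in Lyve1-high macrophages was 1.99-fold (1.62 to 2.44) higher. In classical monocytes S100a4 was at 0.99 (0.922 to 1.06) and S100a6 at 0.941 (0.875 to 1.01) of the male level, and in Aldh1a2-high macrophages S100a6 at 0.996 (0.910 to 1.09). S100a6 was lower in female T cells, at 0.705 (0.664 to 0.749), and S100a4 in female NK cells or ILC1, at 0.730 (0.680 to 0.783).

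Finally, the genes with the most alike profiles were sought among 8677 genes over the 16 classes, by the correlation of log2(CPM + 10) averaged over both libraries. The points share depth and cells, so r is a description. S100a8 and S100a9 were each other's nearest gene (r = 0.99), followed for S100a8 by Camp and Retnlg (both r = 0.98) and for S100a9 by Cxcr2 and Retnlg (both r = 0.98), neutrophil genes that the gate had used. S100a4 was nearest to Ccr2, the receptor that brings monocytes into tissues (r = 0.86), then to Siah2 and Psmd8. Ccr2 is itself on the list of classical monocyte markers. S100a6 was nearest to Glipr2 (r = 0.87), Cdc42se1 and Relt, and S100a11 to Hsh2d (r = 0.82), Cep19 and Plp2. S100a10 was nearest to Maz (r = 0.95), Anp32b and Psmb1, and S100a1 to Ube2e3 (r = 0.91), Tmbim1 and Fnbp1l. With 50 CPM added in place of 10, the 3 nearest genes stayed for S100a4, S100a8, S100a9 and S100a10. Of the other members 2 of 3 stayed, with Anxa1 nearest to S100a11 (r = 0.83), Pigx in place of Relt for S100a6 and Tmem222 in place of Tmbim1 for S100a1. Among the members, S100a6 and S100a11 had r = 0.77, while S100a10 ran against S100a8 (r = -0.77) and S100a9 (r = -0.80).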

How the data were processed

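CD45+ live cells were sorted from adrenal glands and profiled with the 10x 3′ v3.1 chemistry, and the submitters' processing notes name Cell Ranger 4.0.0, DropletUtils 1.4.3 and the genome build mm10. The authors deposited raw UMI counts per gene and barcode, 1 matrix per sex, not normalized. Barcodes with under 200 genes or over 15% mitochondrial UMIs were left out, as were those with the highest Scrublet scores, at 0.8% per 1000 barcodes (124 female and 52 male), since the automatic threshold marked 2 and 10. The ceiling of 1.2% stated by the study left 327 and 359 barcodes and was kept as an alternative, since the scale on which it was applied could not be settled from the sources used here.

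Cells were assigned by the number of detected markers in each of 14 gates (3 or 4 at least, with a defining marker for most), and Lyve1-high macrophages by 2 of their markers. No S100 gene was in a gate. The members, lists and markers were chosen with earlier results of these data known. The minimums, the defining markers and the comparisons of dendritic cells, NK cells and B cells were set after looking at these data. Counts were summed per class and library to CPM. Intervals are exact Poisson (CPM), Clopper-Pearson (shares) and exact conditional binomial (ratios) at 95%, and a count of 0 allows up to 3 counts. Shares of cells were also taken after 500 UMIs had been drawn from each cell. With 1 library per sex no test was run. All members were reported, and the 3 genes most like each were named by correlation over 16 classes among genes with at least 200 UMIs. Scripts were tested on simulated data and used Python 3.11.15, numpy 2.4.6, scipy 1.17.1, pandas 2.3.3 and scanpy 1.11.5.

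The alternatives were no doublet removal, mitochondrial ceilings of 5% and 1.2%, 1 marker more per gate, only cells with at least 1000 UMIs, the mean over cells, leaving out the 5 cells with the most UMIs of the gene, a minimum of 200 UMIs, ratios relative to the median gene, 1000 drawn UMIs and, for correlations, 50 CPM added. Leaving out macrophage barcodes with 1% or more of their UMIs from S100a8 and S100a9 or from Igkc and Ighm, and keeping macrophages without a classical monocyte marker, were chosen after seeing the data.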

Additional observations from a re-analysis of the deposited data

Results flagged for a closer look

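S100a8 and S100a9 were also found in barcodes that entered no comparison, in most of these groups at levels above those of lymphocytes. The barcodes left out by the filters were at 557 CPM of S100a8 and 587 of S100a9 in the female library (270 barcodes) and at 149 and 169 in the male library (235 barcodes).

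Among kept cells of no class, a few barcodes held most of the signal. Female cells with markers of different lineages were at 755 CPM of S100a8 and 801 of S100a9, where 4 of 202 barcodes held 99.1% of the S100a8 UMIs and the rest were at 7.03 and 8.43 CPM. Male cells with equal support for several gates were at 1990 and 2768 CPM, with all S100a8 UMIs in 1 of 26 barcodes. Cells with too few markers were at 82.1 and 57.1 CPM in the female library, with 82.6% of the S100a8 UMIs in 1 of 116 barcodes, and at 83.4 and 153 in the male library, with 83.3% in 1 of 119. Male cells with markers of different lineages (9.43 and 11.3 CPM) and female cells with equal support for several gates (12.7 CPM of each, from 1 UMI) were not above the lymphocyte level beyond counting error.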

How the results depend on the processing

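No paired analysis was possible because each sex had 1 library. Of 137 ratios between classes or sexes, 125 stayed within their counting interval without doublet removal, 132 with 1 marker more per gate, 137 with only cells of at least 1000 UMIs, 117 with a mitochondrial ceiling of 5%, 103 with the mean over cells and 75 of 129 without the 5 lead cells. With the 1.2% ceiling 11 of 37 did, most classes fell under 20 cells and gave no value, and the alternative says little. S100a6 in macrophages outside both subsets was higher in females in all 9 alternatives, from 2.07-fold to 4.17-fold. The same class led in both libraries for 7 of 7 members without doublet removal and with the mean over cells, for 6 with 1 marker more and for 5 without the lead cells. The cause of the changes below was not tested.

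Neutrophil S100a8 in the female library was 85261 CPM with the 5% ceiling, 66952 as a mean over cells and 65593 without the lead cells. In the male library it was 62512, 46429 and 37368, 61803 in cells of at least 1000 UMIs and 73986 with the 1.2% ceiling. S100a9 was 92000, 73186 and 70714 in the female library, and 74483, 58437, 49121, 73592 and 89768 in the male. Lymphocytes with the 1.2% ceiling were at 11.6 (female) and 0 (male) CPM of S100a8 and 23.3 and 33.9 of S100a9. With 1000 UMIs drawn or no draw, S100a8 in male neutrophils and S100a9 in both libraries were at 100%. In lymphocytes the S100a8 share was 1.05% (female, 1000 drawn), and 2.84% and 3.36% with no draw, and the S100a9 share was 1.72% (male, 1000 drawn), and 4.55% and 5.34% with no draw.

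Without the lead cells, and with the mean over cells, 5 members were higher in classical monocytes and 1 in Lyve1-high macrophages. In MHC class II low against high macrophages 0 members were called without doublet removal or the lead cells, where male S100a4 and S100a6 had a ratio of 0. In Mzb1+ B cells 1 member was called with the 5% ceiling or 1 marker more. Female to male, 1 member was called in Lyve1-high macrophages with the 5% ceiling, with at least 1000 UMIs or relative to the median ratio, 1 in MHC class II high macrophages with the 5% or 1.2% ceiling or without the lead cells or the barcodes above, 5 in MHC class II low macrophages and 1 in B cells without the lead cells, and, in macrophages outside both subsets, 1 without the barcodes and 4 relative to the median ratio. The female to male direction turned in MHC class II high macrophages for S100a4 without doublet removal (0.987), for S100a8 with the 1.2% ceiling (0) and for S100a9 with the 5% ceiling (0.777), the 1.2% ceiling (0), without the lead cells (0.78) or without the barcodes (0.7). In macrophages outside both subsets it turned for S100a9 in the same settings (0.786, 0.321, 0.811 and 0.701) and without a monocyte marker (0.642), for S100a8 with the 1.2% ceiling (0) and without a monocyte marker (0.456), for S100a10 with the 1.2% ceiling (0.879) and for S100a11 with the 1.2% ceiling (0.792) and without a monocyte marker (0.987). In T cells it turned with the 1.2% ceiling for S100a4 (1.26) and S100a6 (1.75).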
